A study of Homo sapiens with 8 samples.

Results

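Neuroendocrine and neuronal marker genes were followed in docetaxel sensitive and resistant prostate cancer (PCa) cells. The set held RTN1, UCHL1, ENO2, CHGA, SYP, NCAM1, INSM1 and SOX2, together with REST, a repressor of neuronal genes. These 9 genes, of 60554 gene rows in the files, were chosen by symbol from earlier results of the same comparison of resistant with sensitive cells, in which RTN1 and UCHL1 had already been seen. Values of that comparison are therefore given for the 9 genes as a description, with no test. The data were bulk RNA-seq counts from 8 libraries of DU145 and PC3, 2 established human PCa lines grown from metastases. Each line was present as a sensitive variant kept in 0.1% DMSO, the solvent, and as a resistant variant kept in 10 nM docetaxel, a taxane that stabilizes microtubules, all in RPMI with fetal bovine serum. Each of the 4 combinations of line and variant had 2 libraries. The labels give 1 resistant variant per line, so a difference between variants need not be shared by other resistant cells. No source states that paired libraries were grown apart, and the spread within a pair may be technical only. A drug-free week before harvest is described in the study's methods for single cell samples, and whether it applied to the bulk libraries is not stated.

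Neuroendocrine cells are rare epithelial cells of the prostate that release peptides and amines from dense core granules. Some PCa takes on their features. Pathologists recognize such tumors by granule and vesicle proteins such as chromogranin A and synaptophysin, by the adhesion molecule NCAM1 (CD56), by neuron specific enolase, and by the transcription factor INSM1. REST represses many of these genes in cells that are not neurons. It binds a motif made of a left and a right part and acts through the CoREST and SIN3 corepressor complexes, which remove active histone marks.

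Total counts were between 31685148 and 43045127 per library. Of the 9 genes, 8 had at least 1 count in some library and 7 had enough counts to enter the fit, which took 20238 genes. CHGA and INSM1 did not. NCAM1 and SOX2 entered only through the PC3 resistant libraries. Levels are in CPM, the counts of a gene scaled so that every library has the same total. Of 2659 genes that averaged 100 CPM or more, none was at 0 in any library, and the lowest share of its own mean that any of them reached in a library was 0.277% to 0.798%. Markers of epithelium, the tissue from which PCa arises, differed between the groups. The summed level of 5 epithelial markers (EPCAM, KRT8, KRT18, KRT19 and CDH1) was 4179 and 2558 CPM in DU145 sensitive libraries and 396 and 250 CPM in DU145 resistant ones, and 758 to 1000 CPM over the PC3 libraries. KLK3, which encodes prostate specific antigen, had 0 counts in all 8 libraries.

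The sequences at the start sites of RTN1 and UCHL1 are shown because RTN1 lay higher in both resistant variants and UCHL1 set the lines apart. They are RefSeq windows on GRCh38.p14 from 250 bases before to 50 bases after a start, 5′ to 3′ on the strand of the gene, with each CG dinucleotide in capitals. RTN1 lies on the minus strand of chromosome 14 (chr14:59595976-59870776) and has 3 such windows, of which the CG rich pair is printed. UCHL1 lies on the plus strand of chromosome 4 (chr4:41256413-41268455).
RTN1 at chr14:59870727-59871026: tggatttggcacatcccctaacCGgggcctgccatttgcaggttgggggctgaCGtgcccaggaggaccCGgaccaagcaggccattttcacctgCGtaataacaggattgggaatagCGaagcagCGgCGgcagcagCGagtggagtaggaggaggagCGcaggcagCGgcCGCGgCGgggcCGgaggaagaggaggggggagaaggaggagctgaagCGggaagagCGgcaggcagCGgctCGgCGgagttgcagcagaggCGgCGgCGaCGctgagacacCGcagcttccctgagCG
RTN1 at chr14:59630574-59630873: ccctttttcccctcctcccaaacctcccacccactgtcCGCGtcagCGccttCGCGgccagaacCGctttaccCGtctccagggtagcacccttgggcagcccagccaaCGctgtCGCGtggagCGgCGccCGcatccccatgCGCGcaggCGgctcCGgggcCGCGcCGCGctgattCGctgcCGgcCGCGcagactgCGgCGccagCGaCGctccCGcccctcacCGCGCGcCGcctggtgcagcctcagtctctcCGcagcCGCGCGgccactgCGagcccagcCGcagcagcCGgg
UCHL1 at chr4:41256678-41256977: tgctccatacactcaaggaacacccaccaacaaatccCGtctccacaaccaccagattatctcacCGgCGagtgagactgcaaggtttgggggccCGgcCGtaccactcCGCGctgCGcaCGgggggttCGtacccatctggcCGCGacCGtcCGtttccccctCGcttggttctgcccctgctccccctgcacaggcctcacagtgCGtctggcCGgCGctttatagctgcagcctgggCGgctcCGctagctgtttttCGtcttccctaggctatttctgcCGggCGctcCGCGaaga
The RTN1 windows hold 25 and 41 CG dinucleotides and the UCHL1 window holds 25. The median over 35116 RefSeq promoters was 14, and 32.0% had 25 or more. The third RTN1 window, at chr14:59610090-59610389, holds 1. Counts per gene do not tell which start was used.

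RTN1 encodes reticulon 1, a protein of the endoplasmic reticulum found mainly in neurons and neuroendocrine cells. Its level was 0.863 and 1.06 CPM in DU145 sensitive, 26.3 and 18.2 CPM in DU145 resistant, 0.434 and 0.284 CPM in PC3 sensitive, and 47.2 and 103 CPM in PC3 resistant libraries. In both lines the resistant libraries lay far above the sensitive ones with no overlap, and RTN1 was the only one of the 9 genes for which this held in both lines. The log2 fold change, resistant minus sensitive, was 4.55 ± 0.42 (± standard error, here and below) in DU145 and 7.59 ± 0.49 in PC3. Counts of RTN1 were 31 and 37, then 901 and 631, in DU145, and 15 and 9, then 2030 and 3979, in PC3. The PC3 resistant libraries were 2.19-fold apart, and without the higher of them the PC3 log2 fold change was 6.91, which is 120-fold. In bulk RNA a change in the number of cells that express a gene and a change in its RNA per cell cannot be told apart. Across the 8 libraries the protein-coding genes whose log2 profile lay closest to that of RTN1, among 12889 genes, were IGF2, a growth factor (root mean square difference 0.647 on the log2 scale), ANKFN1 (0.845) and TMEM178B (0.906). IGF2 was at 1.03 and 2.42 CPM in DU145 sensitive, 18.1 and 19.2 CPM in DU145 resistant, 0.724 and 0.473 CPM in PC3 sensitive, and 158 and 178 CPM in PC3 resistant libraries.

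**Figure D1:**
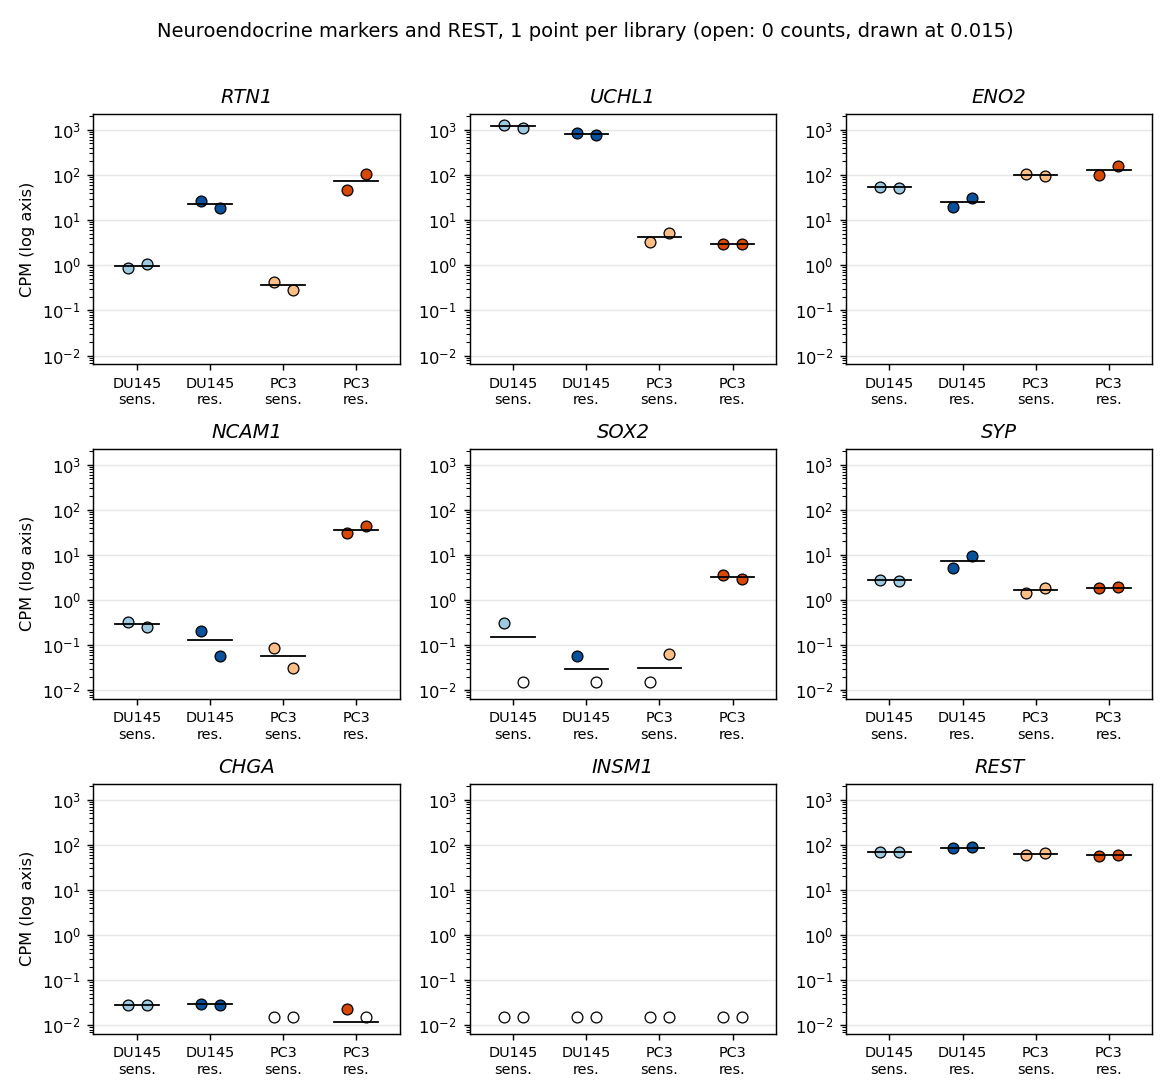
Level in CPM (log axis, the same in every panel) of the 8 neuroendocrine markers and REST in each of the 8 libraries. Points are libraries, bars are means of 2 libraries, and open points had 0 counts. RTN1 is the marker whose resistant libraries lie above the sensitive ones in each line, and UCHL1 separates DU145 from PC3.

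UCHL1 (PGP9.5) is a ubiquitin C-terminal hydrolase that is abundant in neurons and is used as a pan-neuroendocrine stain. It was at 1265 and 1119 CPM in DU145 sensitive, 836 and 762 CPM in DU145 resistant, 3.24 and 5.18 CPM in PC3 sensitive, and 2.90 and 2.93 CPM in PC3 resistant libraries. DU145 cells of both variants held it at a high level, PC3 cells of both variants at a low one, and within each line the resistant libraries lay below the sensitive ones. The log2 fold change, resistant minus sensitive, was -0.57 ± 0.19 in DU145 and -0.62 ± 0.22 in PC3. The PC3 value rested on 276 counts in the sensitive and 238 in the resistant libraries and was -0.27 without PC3 sensitive library 2. The PC3 levels were 0.244% to 0.434% of the DU145 sensitive mean. The lowest shares of 0.277% to 0.798% given above for strongly expressed genes are of a mean over all 8 libraries, which is another base. Whether the PC3 counts came from PC3 RNA was not tested. PAFAH1B3, a subunit of a platelet activating factor acetylhydrolase, and CTSF, which encodes cathepsin F, were among the 3 protein-coding genes closest to UCHL1 in profile over the 8 libraries (root mean square differences 0.272 and 0.285 on the log2 scale). Per kilobase of exon UCHL1 was also the most abundant of the 9 genes in DU145, at 540 CPM per kilobase in sensitive and 362 in resistant cells, against 12.5 and 5.78 for ENO2. In PC3 the highest was ENO2, at 23.2 and 29.4 CPM per kilobase.

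ENO2 encodes neuron specific enolase, the neuronal form of a glycolytic enzyme. Its level was 54.9 and 52.2 CPM in DU145 sensitive, 19.2 and 30.3 CPM in DU145 resistant, 103 and 96.1 CPM in PC3 sensitive, and 97.2 and 155 CPM in PC3 resistant libraries. The DU145 resistant libraries lay below the sensitive ones, while those of PC3 overlapped. The log2 fold change was -1.12 ± 0.23 in DU145 and 0.24 ± 0.22 in PC3, where it turned to -0.14 without PC3 resistant library 2. The general enolase ENO1 had 2314 to 3314 CPM over the 8 libraries.

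NCAM1 encodes the neural cell adhesion molecule CD56. Its counts were 12 and 9 in DU145 sensitive, 7 and 2 in DU145 resistant, 3 and 1 in PC3 sensitive, and 1288 and 1662 in PC3 resistant libraries. Only the PC3 resistant libraries held more than 12 counts, at 29.9 and 43.1 CPM. The ratio of resistant to sensitive NCAM1 in PC3, scaled to library totals, was 598, with a 95% exact interval of 233 to 2198 that covers counting error only. The fitted log2 fold change was 9.06 ± 0.49 in PC3 and -1.15 ± 0.61 in DU145, and the PC3 value ranged from 8.54 to 9.95 when 1 library was left out. NCAM1 lies on chromosome 11 (chr11:112961275-113278436, plus strand), and the antisense gene NCAM1-AS1 had 6 and 1 counts in the PC3 resistant libraries and 0 elsewhere.

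SOX2, a transcription factor of neural progenitors and stem cells, had the same arrangement of groups at a lower level. Its counts were 11 and 0 in DU145 sensitive, 2 and 0 in DU145 resistant, 0 and 2 in PC3 sensitive, and 152 and 111 in PC3 resistant libraries. The PC3 resistant libraries, at 3.53 and 2.88 CPM, lay above the other 6, which overlapped with each other. The ratio in PC3 was 107, with a 95% exact interval of 29.2 to 886 for counting error only, since the sensitive libraries gave 2 counts in all. The fitted log2 fold change was 6.48 ± 1.07 in PC3, between 5.51 and 9.84 when 1 PC3 sensitive library was left out. In DU145 it was -2.28 ± 1.47 and turned to 3.23 without DU145 sensitive library 1. SOX2-OT, a long noncoding RNA that overlaps SOX2, had 1 to 12 counts in each library, with 9 and 12 in the PC3 resistant ones.

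SYP encodes synaptophysin, a membrane protein of small vesicles. Its level was 2.84 and 2.65 CPM in DU145 sensitive, 5.03 and 9.42 CPM in DU145 resistant, 1.42 and 1.86 CPM in PC3 sensitive, and 1.81 and 1.94 CPM in PC3 resistant libraries. In DU145 the resistant libraries lay above the sensitive ones, at a log2 fold change of 1.39 ± 0.32, and in PC3 the libraries overlapped (0.10 ± 0.33). CHGA, which encodes chromogranin A of the dense core granule, had at most 1 count in any library, and INSM1, a zinc finger factor of neuroendocrine differentiation, had 0 counts in all 8. A count of 0 in a library allows up to 3 counts, for counting error only. The granule marker CHGA and the lineage marker INSM1 were therefore at or near 0 also in the variants with high RTN1.

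REST encodes the repressor. It was at 67.2 and 69.9 CPM in DU145 sensitive, 85.5 and 87.4 CPM in DU145 resistant, 58.7 and 64.0 CPM in PC3 sensitive, and 55.7 and 60.0 CPM in PC3 resistant libraries. The DU145 resistant libraries lay above the sensitive ones, at a log2 fold change of 0.34 ± 0.12, and the PC3 libraries overlapped (-0.18 ± 0.12). REST was the steadiest of the 7 genes, with group means of 57.9 to 86.4 CPM.

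In all, the DU145 resistant libraries lay above the sensitive pair for RTN1, SYP and REST and below it for UCHL1, ENO2 and NCAM1. In PC3 they lay above for RTN1, NCAM1 and SOX2 and below for UCHL1. The other genes of the 7 overlapped. Over all 20238 genes, edgeR called 12.4% higher and 15.4% lower in DU145 resistant cells, and 18.6% higher and 17.0% lower in PC3 resistant cells, at an adjusted p under 0.05. A call is not the same measure as libraries without overlap, and the share of all genes without overlap was not counted. Nothing is read from the gene set against these shares, since it was chosen on this comparison.

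**Figure D2:**
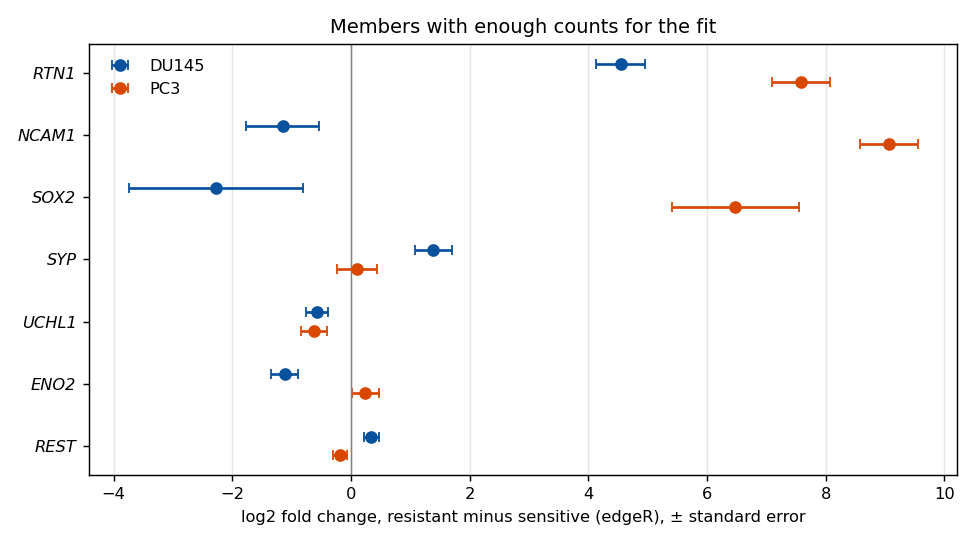
Log2 fold change, resistant minus sensitive, from the edgeR fit for the 7 genes with enough counts. Points are estimates for DU145 (blue) and PC3 (orange), and bars are standard errors. RTN1 is at 4.55 and 7.59, NCAM1 and SOX2 are at 9.06 and 6.48 in PC3, and REST is within 0.34 of 0.

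The sensitive variants of the lines were compared to see how far the markers differed between the lines outside resistance. The choice of genes did not use this comparison, which shares its libraries with those above. UCHL1 was lower in PC3 than in DU145 sensitive cells, with a log2 difference of -8.09 (standard error 0.26, edgeR adjusted p = 4.88e-09). ENO2 was higher in PC3, with a log2 difference of 0.96 (standard error 0.23, edgeR adjusted p = 0.00411). NCAM1, with 21 counts in the DU145 and 4 in the PC3 sensitive libraries, and SOX2, with 11 and 2, entered the fit only through the PC3 resistant libraries, so no test of them is given here. RTN1 did not pass, with -1.34 (standard error 0.57, edgeR adjusted p = 0.0659), although both PC3 libraries lay below both DU145 libraries, and with DESeq2 it passed (adjusted p = 0.0110). SYP (-0.68, edgeR adjusted p = 0.102) and REST (-0.10, edgeR adjusted p = 0.528) did not pass. Over all genes tested 28.6% were higher and 29.2% lower in PC3, so calls such as those of ENO2 and UCHL1 were common between the lines.

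Genes around these markers were grouped by role in lists of genes outside the set, 8 lists with 147 genes, of which 106 were tested. In DU145 resistant cells 16 of the 106 (15.1%, against 12.4% of all genes) were higher and 27 (25.5%, against 15.4%) lower, with a median log2 fold change of 0.02 against 0 over all genes. In PC3 resistant cells 31 (29.2%, against 18.6% of all genes) were higher and 24 (22.6%, against 17.0%) lower, with a median of 0.13 against 0.01. These shares of all genes are given as the background for each list, and no list was tested as a whole. The lists were chosen with earlier results of these data known, as the gene set was. A share of a list above or below the background is therefore a description, and nothing is read from it. Some called genes, such as CPLX2 in PC3 and INA in DU145, entered the fit only through the group in which they were high. Their calls are counted in the shares of the lists, which are a description for this reason too. By the test of the difference between the lines, 28 (26.4%) had a more positive change in PC3 than in DU145. For 22 (20.8%) the change was more negative. A more positive change can also be a smaller fall. Of all genes 34.3% were called in either direction, with no split by direction given.

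Among 22 transcription factors of neuroendocrine and neural fate, 11 were tested. In PC3 resistant cells 6 of them (54.5%, against 18.6% of all genes) rose and 1 (9.09%, against 17.0%) fell. POU3F2 (BRN2), a POU factor of neurons and neuroendocrine PCa, rose from 0.166 ± 0.0113 to 12.7 ± 3.24 CPM (SD, n = 2, log2 fold change 6.13, edgeR adjusted p = 5.49e-05). PROX1, a homeobox factor, rose by a log2 fold change of 4.66 (edgeR adjusted p = 0.00013). MYT1, a neuronal zinc finger factor, rose from 0.771 to 11.9 CPM (3.84, edgeR adjusted p = 5.02e-05), and ISL1, a LIM homeobox factor, by 3.21 (edgeR adjusted p = 0.000346). The others that passed in PC3, named after their values were seen, were FOXA2 (1.72) and LHX2 (0.78), which rose, and PAX6 (-1.04), which fell. In DU145 resistant cells 1 of the 11 (9.09%, against 12.4% of all genes) rose and 3 (27.3%, against 15.4%) fell. PAX6, an eye and brain factor, rose by 0.78 (edgeR adjusted p = 0.0116). SOX21 (-4.76, edgeR adjusted p = 0.000233), MYT1 (-1.75, edgeR adjusted p = 0.0104) and FOXA2 (-2.09, named after its value was seen) fell. The MYT1 call in DU145 was lost without sensitive library 2 (-1.37) or resistant library 1 (-1.25), and the PAX6 call without sensitive library 1 (0.70) or resistant library 2 (0.60). NEUROD1 and MYCN had 0 counts in all 8 libraries.

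Of 23 genes of granules and vesicles, 16 were tested. In PC3 resistant cells 6 (37.5%, against 18.6% of all genes) were higher and 2 (12.5%, against 17.0%) lower, and in DU145 resistant cells 3 (18.8%, against 12.4%) were higher and 4 (25%, against 15.4%) lower. In PC3, SYN2, a synapsin of the vesicle surface, rose from 0.214 ± 0.0985 to 9.03 ± 0.599 CPM (SD, n = 2, log2 fold change 5.29, edgeR adjusted p = 6.07e-06). STX1A, a syntaxin of the fusion machinery, rose from 57.3 to 262 CPM (2.09, edgeR adjusted p = 1.37e-05). CPLX2, a complexin that clamps fusion, had 4 and 1 counts in PC3 sensitive and 120 and 73 in PC3 resistant libraries. It entered the fit only through the latter, so no test of it is given. SNAP25, the partner of STX1A, was at 0 counts in both PC3 sensitive libraries, while the resistant ones had 77 and 64. The PC3 genes that fell were SCG5 (-1.98, edgeR adjusted p = 0.0101), a chaperone of prohormone convertase, and CPLX1. In DU145, RAB3A (-2.04), SV2A (-1.38), both of vesicles, and CPE (-1.08), which encodes carboxypeptidase E of the granule, fell with edgeR adjusted p of 0.000406, 0.0103 and 0.00129, as did SLC18A2. SNAP25 rose by 0.91 (edgeR adjusted p = 0.028), a call lost without any 1 of the DU145 libraries (0.82 to 1.01), and SCG2 and PAM rose too. SLC18A2, SCG2, PAM and CPLX1 were named after their values were seen. The SV2A call was lost without DU145 sensitive library 2 (-1.24) or resistant library 1 (-0.97), and the SCG5 call without PC3 sensitive library 2 (-1.19) or resistant library 2 (-1.66). CHGB, the partner of CHGA, had at most 1 count in any library.

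Of 14 neuropeptides and amine enzymes only 6 were tested. GAL, the neuropeptide galanin, fell in PC3 from 2.55 to 0.109 CPM (log2 fold change -4.59, edgeR adjusted p = 7.51e-06) and was at 25.8 and 31.2 CPM in DU145 sensitive and resistant cells (0.28, edgeR adjusted p = 0.367). TPH1, which makes serotonin precursor, had 0.735 and 1.07 CPM in DU145 (0.54, edgeR adjusted p = 0.314). TH, of catecholamine synthesis, passed in DU145 on 0 and 0 against 7 and 3 counts, and was named after its value was seen.

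Among 24 genes of neuronal structure, 18 were tested. In DU145 resistant cells 8 of them (44.4%, against 15.4% of all genes) fell and 4 (22.2%, against 12.4%) rose, and in PC3 resistant cells 6 (33.3%, against 18.6%) rose and 2 (11.1%, against 17.0%) fell. CNTN1, a contactin of axons, fell in DU145 from 74.2 ± 23.9 to 1.26 ± 0.828 CPM (SD, n = 2, log2 fold change -5.88, edgeR adjusted p = 1.34e-05). NES, which encodes nestin, fell by 2.84 on this scale (edgeR adjusted p = 1.06e-06), NRCAM, an adhesion molecule, by 1.89 (edgeR adjusted p = 0.000618), and the neurofilament gene NEFM by 1.67 (edgeR adjusted p = 0.00106). In PC3, DPYSL5, of axon guidance, rose from 0.182 to 8.39 CPM (5.41, edgeR adjusted p = 1.7e-06), and MAP2, a dendritic microtubule protein, from 0.750 to 7.19 CPM (3.17, edgeR adjusted p = 7.5e-05). STMN3, a stathmin, rose in PC3 by 1.39 (edgeR adjusted p = 0.000237), and the neurofilament gene NEFL fell by 1.39 (edgeR adjusted p = 0.000971). The DU145 genes that rose were STMN3 and L1CAM, with values among the REST targets, and INA and DPYSL3, named after their values were seen.

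**Figure D3:**
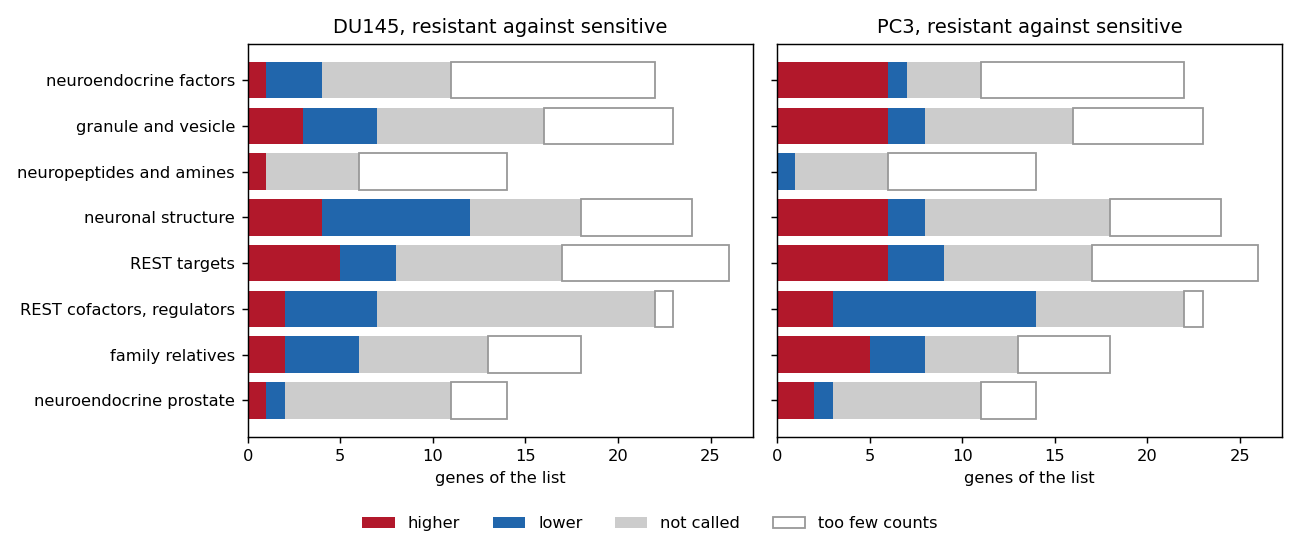
Genes of the 8 lists called higher (red) or lower (blue) in resistant cells by edgeR at an adjusted p under 0.05, not called (grey) or with too few counts to test (white), in DU145 (left) and PC3 (right). The x axis is the number of genes of the list. Of 11 tested neuroendocrine factors 6 were higher and 1 lower in PC3, and 1 higher and 3 lower in DU145. Of 22 tested REST cofactors and regulators 3 were higher and 11 lower in PC3, and 2 higher and 5 lower in DU145. Over all genes 18.6% were higher and 17.0% lower in PC3, and 12.4% and 15.4% in DU145.

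REST works with cofactors and is itself spliced and degraded, so 23 cofactors and regulators were followed and 22 tested. In PC3 resistant cells 11 (50%, against 17.0% of all genes) fell and 3 (13.6%, against 18.6%) rose, with a median log2 fold change of -0.42. RCOR1, which encodes CoREST, fell from 97.7 ± 13.1 to 35.3 ± 3.48 CPM (SD, n = 2, -1.57, edgeR adjusted p = 1.83e-05), and the phosphatase gene CTDSP1 fell by 0.94 (edgeR adjusted p = 0.000544). The genes that rose in PC3 were CTDSPL, a related phosphatase, from 0.243 to 25.9 CPM (6.62, edgeR adjusted p = 5.7e-08), SRRM3, a splicing factor of neuronal microexons, from 0.546 to 15.4 CPM (4.72, edgeR adjusted p = 5.82e-06), and BTRC (0.48), a subunit of the ubiquitin ligase that targets REST, named after its value was seen. In DU145 resistant cells 2 of the 22 (9.09%, against 12.4% of all genes) rose and 5 (22.7%, against 15.4%) fell. Both of the large PC3 changes had the other sign in DU145 resistant cells. SRRM3 fell from 4.23 to 0.955 CPM (-2.15, edgeR adjusted p = 0.000978) and CTDSPL from 45.4 to 20.3 CPM (-1.15, edgeR adjusted p = 0.000512). HMG20B, of the CoREST complex, fell by 1.44 (edgeR adjusted p = 0.000263) and RCOR2 by 1.04 (edgeR adjusted p = 0.0393), a call lost without any 1 of 7 libraries and at its smallest, -0.63, without DU145 resistant library 2. EHMT2 fell as well, and RCOR3 and SIN3B rose, in DU145, all named after their values were seen. SRRM4, the paralog of SRRM3 that splices REST in neurons, stayed at or below 0.146 CPM.

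Known REST targets numbered 26, of which 17 were tested. In DU145 resistant cells 5 (29.4%, against 12.4% of all genes) rose and 3 (17.6%, against 15.4%) fell, and in PC3 resistant cells 6 (35.3%, against 18.6%) rose and 3 (17.6%, against 17.0%) fell. In DU145, GAD1, which makes GABA, rose by 1.48 (edgeR adjusted p = 0.00182), L1CAM, an axonal adhesion molecule, by 1.30 (edgeR adjusted p = 0.00416), BDNF, a neurotrophin, from 22.4 to 48.7 CPM (1.13, edgeR adjusted p = 0.0021), and STMN3 by 1.05 (edgeR adjusted p = 0.00351). SCN2A, SCN3A and TUBB3 fell in DU145 and were named after their values were seen. In PC3 CALB1, a calcium buffer, rose by 3.39 (edgeR adjusted p = 0.00919) and STX1A, given above, by 2.09. The CALB1 call was lost without PC3 resistant library 1 (2.33). The sodium channel gene SCN3A (-2.63, edgeR adjusted p = 0.00423) fell in PC3, as did BDNF. STMN2, a much used REST target, had 1 count in 1 library.

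A search for the left and right parts of the REST motif shows where its letters occur. The letters searched were TCAGCAC and GGACAG, in this order with at most 12 bases between them, on both strands of the windows of 300 bases. TCAGCAC alone was in 4.52% and GGACAG in 20.5% of all promoters, and the ordered pair was in 45 of 35116 (0.128%). Windows were given for 7 of the 9 genes, 10 in all, and 0 held the pair, which says only that these letters are not there. Of 182 genes in all lists 121 had a window and 5 held the pair. They are printed with the motif parts in capitals, on the strand of the match.
GRIA2 at chr4:157220388-157220409, minus strand: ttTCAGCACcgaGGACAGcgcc
SCG3 at chr15:51681510-51681537, plus strand: ctTCAGCACccacagggcGGACAGcgct
SYN1 at chrX:47620070-47620091, minus strand: ctTCAGCACcgcGGACAGtgcc
UNC13A at chr19:17688339-17688366, plus strand: gtTCAGCACcgggggcgcGGACAGcgcc
VGF at chr7:101165558-101165579, plus strand: ctTCAGCACgctGGACAGcgcc
A gap of 3 bases separated the parts in GRIA2, SYN1 and VGF and one of 9 bases in SCG3 and UNC13A. These genes were low in all 4 groups. GRIA2, a glutamate receptor gene, had at most 0.0465 CPM, SCG3, a secretogranin, 0.202, SYN1, a synapsin, 0.415, and UNC13A, a priming factor, 0.920. VGF, a granule peptide, had 1.23 to 7.57 CPM.

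Relatives of the 9 genes numbered 18, of which 13 were tested. Of the other reticulons, RTN3 was at 411 ± 4.29 and 236 ± 10.4 CPM (SD, n = 2) in DU145 sensitive and resistant cells (log2 fold change -0.79, edgeR adjusted p = 0.00182), and RTN2 fell by 1.49 (edgeR adjusted p = 0.00567). RTN4 rose in DU145 (0.74), and RTN2 and RTN3 rose in PC3 (0.87 and 0.41), all 3 named after their values were seen. UCHL3, a relative of UCHL1, rose in DU145 from 4.31 to 8.27 CPM (0.95, edgeR adjusted p = 0.00945). SYNGR2, a synaptogyrin related to SYP, fell in DU145 by 0.77 (edgeR adjusted p = 0.00339) and in PC3 by 1.55 (edgeR adjusted p = 3.21e-05), and SYPL1 fell in PC3 by 0.98 (edgeR adjusted p = 0.000345). SYNGR1 fell in DU145 and rose in PC3, and UCHL5 fell in PC3, named after their values were seen. ENO3 rose in PC3 by 1.38 (edgeR adjusted p = 0.00973). NCAM2, the paralog of NCAM1, was at 0.562 CPM in PC3 sensitive and 2.45 CPM in PC3 resistant cells. It entered the fit only through the PC3 resistant libraries, so no test of it is given. The calls of UCHL3 without DU145 sensitive library 2 (0.78) and of ENO3 without PC3 sensitive library 1 (1.39) or 2 (1.37) were lost. The NCAM2 log2 fold change in PC3 was 1.42 without PC3 sensitive library 2 and 1.81 without PC3 resistant library 1. In all, 2 relatives (15.4%, against 12.4% of all genes) were higher and 4 (30.8%, against 15.4%) lower in DU145. In PC3 5 (38.5%, against 18.6%) were higher, NCAM2 counted among them, and 3 (23.1%, against 17.0%) lower.

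Of 14 genes tied to neuroendocrine PCa in general, 11 were tested. PEG10, a retrotransposon derived gene, fell in DU145 from 327 to 78.9 CPM (-2.04, edgeR adjusted p = 0.000128) and DNMT1 rose by 0.52 (edgeR adjusted p = 0.0305). In PC3, DLL3, a Notch ligand of neuroendocrine tumors, rose by 1.05 (edgeR adjusted p = 0.00418) and CCND1 fell by 0.65 (edgeR adjusted p = 0.023). The DNMT1 call was lost without DU145 sensitive library 2 (0.39), DU145 resistant library 1 (0.43) or either PC3 sensitive library (0.52), and the CCND1 call without PC3 sensitive library 1 (-0.60) or 2 (-0.70) or resistant library 2 (-0.44). DLL3 was at 2.78 CPM in sensitive and 6.19 CPM in resistant PC3 cells. AURKA, EZH2 and RB1 did not pass in either line.

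**Figure D4:**
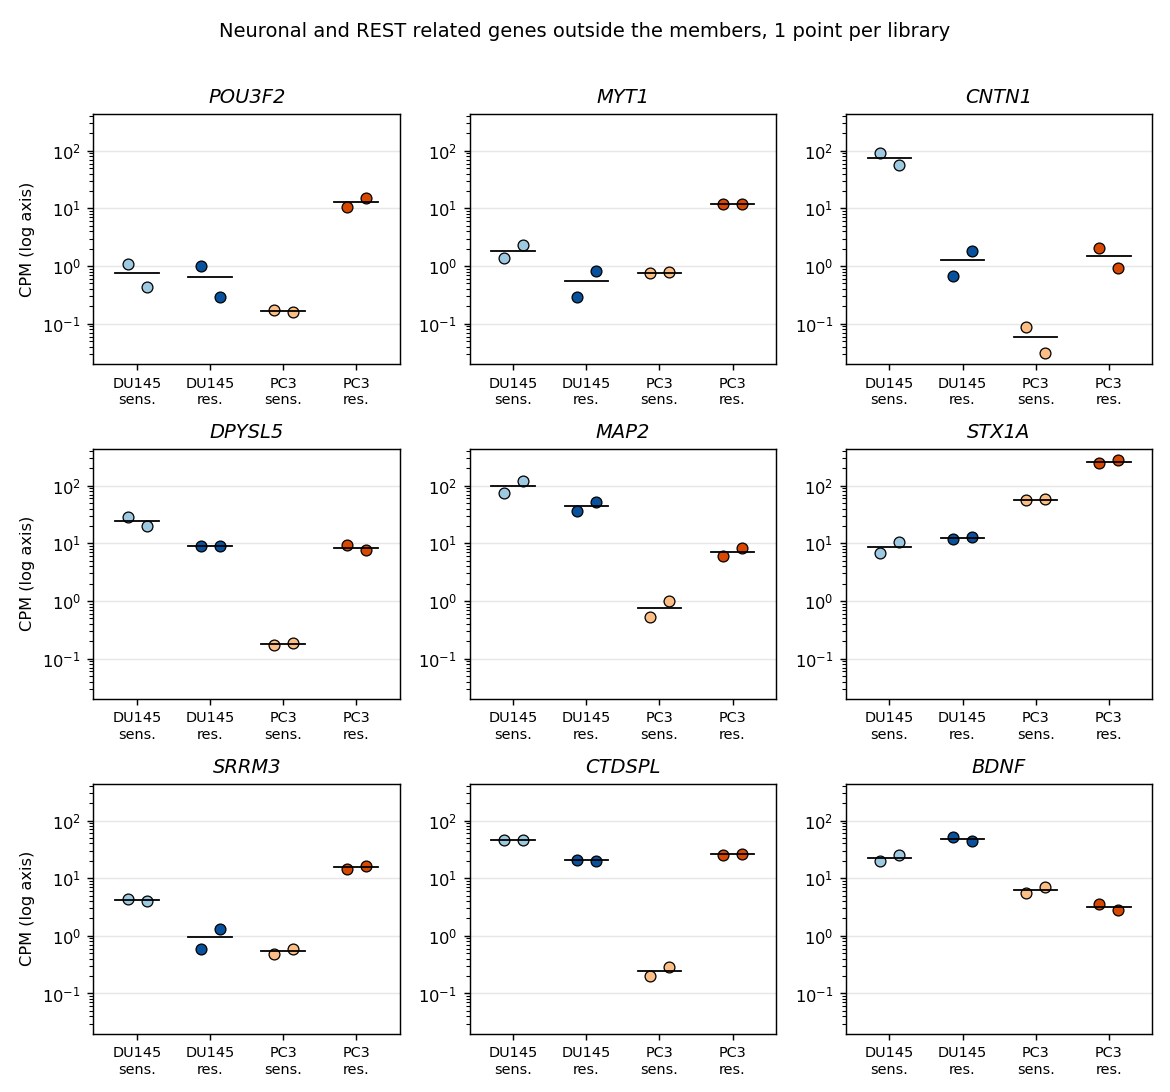
Level in CPM (log axis, the same in every panel) of 9 neuronal and REST related genes outside the set. Points are libraries and bars are means of 2 libraries. POU3F2, MYT1, STX1A and SRRM3 are highest in PC3 resistant cells, while CNTN1, MAP2, DPYSL5 and CTDSPL are highest in DU145 sensitive cells and lowest in PC3 sensitive cells.

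Markers of other cells moved in the same libraries. In DU145 resistant cells KRT8 (log2 fold change -5.88), CDH1 (-5.74), KRT18 (-2.65) and KRT19 (-1.28) fell (edgeR adjusted p = 8.24e-07, 1.05e-06, 0.000475 and 0.000301). EPCAM, named after its value was seen, did not pass in DU145 (-0.20, edgeR adjusted p = 0.662). In PC3 CDH1 rose by 2.55 (edgeR adjusted p = 5.55e-05), and the other epithelial markers did not pass. The luminal prostate markers had 2 higher (25%) and 2 lower (25%) of 8 tested in each line. Over all genes 12.4% were higher and 15.4% lower in DU145, and 18.6% and 17.0% in PC3. The luminal list was also chosen with earlier results known, and nothing is read from its shares against these. STEAP2 (1.71) rose and SLC45A3 (-0.87) and ACPP, named after its value was seen, fell in DU145. In PC3 TMPRSS2, named after its value was seen, rose, and HOXB13 (-2.83) and FOLH1 (-7.35) fell. FOLH1 entered the fit only through the PC3 sensitive libraries and TMPRSS2 only through the PC3 resistant ones. Both are counted above, and no test of them is given. The edgeR adjusted p of STEAP2, SLC45A3 and HOXB13 were at most 0.00827. Of 19 markers of leukocytes, endothelium, fibroblasts, glia, liver and red cells, the summed level was 7.35 to 9.30 CPM over the DU145 libraries, 30.3 and 42.8 CPM in PC3 sensitive and 40.6 and 63.4 CPM in PC3 resistant libraries, with 5 to 10 of them at 0 in each library. In DU145 0 of the 10 tested passed with edgeR, against 12.4% of all genes higher and 15.4% lower. With DESeq2 0 passed as well, and at an unadjusted p under 0.05 the counts were 1 with edgeR and 0 with DESeq2. COL1A1 (0.09) and COL1A2 (-0.10) had edgeR adjusted p of 0.831 and 0.909 in DU145. In PC3 4 of the 10 (40.0%, against 18.6% of all genes) were higher and 1 (10.0%, against 17.0%) lower. Nothing is read from these shares. In PC3 PECAM1 (1.44, edgeR adjusted p = 0.00433) and ALB rose, ALB being named after its value was seen. CD14, also named after its value was seen, had 4 and 9 counts in PC3 sensitive and 37 and 33 in PC3 resistant libraries. It entered the fit only through the latter. LYZ, with 3 and 6 counts in PC3 sensitive and 31 and 228 in PC3 resistant libraries, entered the fit only through the latter. LUM, named after its value was seen, had 25 and 56 counts in PC3 sensitive libraries and 0 in both resistant ones. It entered only through the former. No test of CD14, LYZ or LUM is given, though they are counted above. The LYZ log2 fold change was 4.47, with 2.26 without PC3 resistant library 2 and 4.02 without PC3 sensitive library 1. Without PC3 resistant library 2 the PECAM1 call (0.88) was lost. The SLC45A3 call was lost without DU145 sensitive library 1 (-0.72) or resistant library 2 (-0.66). The leukocyte marker PTPRC stayed at or below 0.537 CPM. The part of these markers in the RTN1, NCAM1 and SOX2 differences was not tested.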

How the data were processed

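A SMART-seq kit was used to prepare the libraries from total RNA. The values are raw counts per gene, 1 deposited file per library, which the authors made from reads aligned with Bowtie to hg38. The sources used here give no aligner version, read counter, annotation or strand setting, so reads of a gene and of an antisense partner cannot be told apart. The reads carry no molecular identifiers, and exact intervals and the limit of 3 counts at a count of 0 cover counting error only.

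The 9 genes and the gene lists were chosen with earlier results of these data known. Groups were taken from the sample labels. CPM are counts divided by the library total. Genes were filtered with filterByExpr by group (20238 of 60554 left) and scaled by TMM (factors 0.951 to 1.04). In edgeR 4.0.16 (R 4.3.3) 1 model with group means took all 8 libraries, with 4 residual degrees of freedom and a common biological coefficient of variation of 17.1%, and quasi-likelihood tests of the contrasts were adjusted by Benjamini-Hochberg over all genes tested, at 0.05. Standard errors were taken as the size of a log2 fold change over the square root of its F. Coordinates and exon lengths are from GENCODE 44 (GRCh38). Promoter windows are from RefSeq (GRCh38.p14), which held 7 of the 9 genes. The edgeR step was tested on simulated counts with known changes between the DU145 variants.

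From each list and line, up to 4 genes were named, the largest log2 fold changes past the threshold, given an average of 1 CPM or more in the line and no overlap between groups, or up to 2 with the highest mean CPM where none passed. For RTN1 and UCHL1 the rule also takes the 3 closest profiles. Other names are marked in the text. Paired libraries of a group were further apart than sampling noise (chi-square per degree of freedom 20.8 to 54.7). Alternatives were DESeq2 1.42.0, RLE scaling, a stricter low count filter (1 CPM in 4 libraries) or none, replicate number as a block, separate fits per line, an adjusted p under 0.01, and each library left out in turn. A few genes under this rule, among them one close to UCHL1 in profile, are not reported here.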

Additional observations from a re-analysis of the deposited data

Results flagged for a closer look

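Some genes moved in opposite directions with resistance in the 2 lines. Differences are the PC3 log2 fold change minus the DU145 log2 fold change. For NCAM1, higher in both PC3 resistant libraries and lower in both DU145 resistant libraries on few counts, the difference was 10.22, which was not tested because the gene was chosen on this comparison. Outside the set, 11 of the 61 list genes under the naming rule were called with opposite signs and differed by the test of the difference itself. That rule takes the largest called changes, and list genes outside it were not counted. By the test of the difference alone, 34.3% of all genes were called. The share of all genes called with opposite signs was not counted, so nothing is read from the 11. In PC3 the change was more positive for CNTN1 (10.36), CDH1 (8.29), CTDSPL (7.77), SRRM3 (6.86), DPYSL5 (6.83), MYT1 (5.59), MAP2 (4.30), RTN2 (2.37) and RTN3 (1.19). It was more negative for BDNF (-2.23) and PAX6 (-1.82).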

How the results depend on the processing

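Under RLE scaling, DESeq2, no low count filter and the filter of 1 CPM in 4 libraries every count of called genes stayed within 1.5 times of its value, and so it did in fits on 1 line alone where these were made. At an adjusted p under 0.01, 3126 genes were called in DU145 and 4361 in PC3, against 5633 and 7196, since a stricter threshold passes fewer. Without 1 library the counts were 3623 (without DU145 sensitive library 2) to 5541 in DU145 and 4353 (without PC3 sensitive library 1) to 7598 in PC3, where it was 4387 without PC3 sensitive library 2. The RTN1 difference between the sensitive lines, -1.34, passed with DESeq2 (adjusted p = 0.0110) and without a low count filter (-1.34, adjusted p = 0.0011), and with edgeR also without either DU145 resistant library (adjusted p = 0.0479 and 0.0489) or either PC3 resistant library (0.0152 and 0.0153). With the filter of 1 CPM in 4 libraries NCAM1 and SOX2 had no value.

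With 1 library left out the lone library of a group is assumed to vary like the others. Log2 fold changes in DU145 then ranged from 4.18 to 4.86 for RTN1, -0.70 to -0.42 for UCHL1, -2.35 to -0.44 for NCAM1, -5.52 to 3.23 for SOX2 and 0.30 to 0.41 for REST. In PC3 they ranged from 6.91 to 8.05 for RTN1, -0.91 to -0.27 for UCHL1, -0.14 to 0.55 for ENO2, 8.54 to 9.95 for NCAM1 and 5.51 to 9.84 for SOX2. Between the sensitive lines they ranged from -1.69 to -1.04 for RTN1, -3.05 to -1.64 for NCAM1 and -5.53 to 3.33 for SOX2, which turned sign without DU145 sensitive library 1. COL1A1 in DU145 ranged from -0.16 to 0.41 and COL1A2 from -0.69 to 0.35, neither called. In fits on 1 line alone DNMT1 (0.54), RCOR2 (-1.02) and SLC45A3 (-0.85) lost their DU145 calls. The causes were not tested.

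With replicate number as a block, 7022 genes were called in DU145 and 8538 in PC3, all counts stayed within 1.5 times, and no call of a named gene changed. For pairs of groups, the deviations of equally numbered libraries were correlated across genes. The correlation was 0.321 between DU145 sensitive and DU145 resistant and 0.0608 to 0.106 for the other pairs of groups. Whether equally numbered libraries share a batch was not tested. Depth limits NCAM1, SOX2 and RTN1 in the sensitive cells.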
